A study of Mus musculus with 8 samples.

Results

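General capillary endothelial cells (gCap cells) of the mouse lung were examined after long exposure to cigarette smoke. Members were the cells to which the authors' annotation gives the type capillary B, 9,988 of 40,074 cells left once the classes for multiplets and cell cycle were taken out. Single-cell RNA came from the lungs of 8 C57BL/6 mice, all of the genotype Sftpc-CreERT2-mTmG, in which Cre acts from the promoter of a surfactant gene of alveolar type II (AT2) cells and tamoxifen turns on green fluorescent protein there. All 8 mice received tamoxifen at 8 to 10 weeks of age. From 2 weeks later, 4 littermates breathed cigarette smoke (CS) for 10 months, 6 hours a day on 5 days a week, and 4 were kept in room air (RA), and lungs were taken 1 day after the last exposure. The CS mice are called C2, C5, D2 and D5 and the RA mice F1, F3, M1 and M3, and each mouse was 1 library. Between 403 (M3) and 2,075 (F1) gCap cells came from a mouse.

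Pulmonary capillaries hold endothelial cells of 2 kinds. Aerocytes are large, thin cells of the gas-exchange surface, while gCap cells are regarded as the less specialised kind, able to divide and to give rise to both after injury. Gpihbp1, a membrane protein that carries lipoprotein lipase across capillary endothelium, Lpl, the lipase itself, and Cxcl12, a chemokine bound by the receptors Cxcr4 and Ackr3, mark the gCap cells.

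The label held against these markers. Levels are given as transcripts per 10,000 of a cell, averaged over the cells of a mouse. Gpihbp1 averaged 12.3 ± 1.84 (SD, n = 8 mice) in gCap cells, the highest of 28 cell types, against 0.545 in aerocytes, 4.60 in arterial and 4.92 in venous endothelial cells. Lpl averaged 4.58 ± 3.61 (SD, n = 8), second to the 23.4 of alveolar macrophages, and stood at 0.178 in aerocytes. Cxcl12 averaged 4.41 ± 1.62 (SD, n = 8) and came after arterial cells at 8.08 and adventitial fibroblasts at 4.96. Plvap, Kit, Sema3c and Aplnr were also highest in gCap cells, as were the general endothelial genes Tek and Tie1. Cells labelled erythrocytes came second for Gpihbp1 (6.11), Kit (3.59 against 5.02), Sema3c (12.6 against 22.4) and Aplnr (0.621 against 0.624). Of the other gCap markers, Cadm1 averaged 7.75 against 15.2 in alveolar type I cells, and Ptprb 26.2 against 30.1 in arterial cells. The general endothelial genes Kdr, Cldn5, Cdh5, Ramp2 and Pecam1 were highest in aerocytes. Of the aerocyte markers Apln, Chst1 and Rprml stayed under 0.05 in every mouse, and so did the arterial marker Dkk2, the lymphatic markers Prox1, Mmrn1 and Reln, the collagens Col1a1, Col1a2 and Col3a1, the pericyte markers Higd1b, Pdgfrb and Kcnk3, and the immune markers Ptprc and Cd3e. Other markers of these types were present in gCap cells. The arterial markers Efnb2 and Gja4 averaged 4.84 and 1.99, against 8.01 and 2.44 in arterial cells, and Sox17, at 2.62, was highest in gCap cells of all 28 types. The venous marker Vwf averaged 5.44 against 45.2 in venous cells, and the lymphatic marker Lyve1 4.00 against 5.41 in lymphatic cells. The aerocyte markers Car4 and Emp2 averaged 1.61 and 0.620, against 27.5 and 35.9 in aerocytes. A transcript of Gpihbp1 was found in 84.1% of gCap cells thinned to 2,000 unique molecular identifiers (UMIs) and in 2.08% of B cells thinned alike. Without thinning these shares were 91.8% and 3.56%, at median depths of 3,833 and 4,055 UMIs.

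Depth and cell quality of the gCap cells did not differ detectably between the exposures. The median UMI count per cell ran from 3,482 to 4,925 in CS mice and from 3,024 to 5,226 in RA mice (p = 0.943, exact two-sided permutation test over 70 assignments of the 8 mice), and the mean mitochondrial share from 0.709 to 1.52% and from 0.870 to 1.24% (p = 0.743, exact permutation). The libraries held 31,094,695 to 52,753,531 UMIs. The labels of sex went against the data in all 4 CS libraries: C2 and C5, labelled male, held Xist at 9.04 and 9.25, whereas in D2 and D5, which the labels call female, Ddx3y of the Y chromosome was at 0.942 and 0.979. The 4 RA libraries matched their labels, and both groups held 2 mice with Xist and 2 with Ddx3y. Of 40,909 barcodes 197 occurred in more than 1 library, and 100 gCap cells shared a barcode with another library. One RA library, F1, stood apart within its group: 70.3% of its gCap cells fell in a cluster of the authors led by stress genes, against 31.8 to 52.5% in the other RA mice and 18.4 to 41.4% in CS mice. Values without F1 stand beside several results below.

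The first question was which genes differed between CS and RA in gCap cells. Across the 6,712 genes found in at least 10% of gCap cells of either group, 725 passed an adjusted p of 0.05 (limma on log2 of the level plus 1, Benjamini-Hochberg over all genes tested, n = 4 mice per group), which is 10.8% of the genes. Of these, 440 (6.56%) were higher and 285 (4.25%) were lower in CS, and 2,351 genes had an unadjusted p under 0.05. Of the 725, 89 reached the detection limit of 10% of cells only in the group where they were higher, and 636 reached it in both. Most differences were small: 76 called genes differed by more than 0.5 on the log2 scale and 5 by more than 1. The adjusted p-values were crowded near the threshold, with 241 between 0.04 and 0.05 and none under 0.01. The count moved with single mice. Leaving out C2 left 27 calls, D2 37, D5 0 and F3 73, while leaving out F1 left 604. Of the 83 called genes named in this text, 71 lost their call without C2, 70 without D2, 62 without F3 and all 83 without D5, against 9 without F1. The values without F1 given for single genes below therefore do not stand for leaving out other mice. With the sequencing lane as a block no gene was called. All 725 genes kept their direction and an unadjusted p under 0.05 without D5. The lane block leaves each log2 difference as it was, and all 725 had an unadjusted p under 0.05 there. The 725 were selected for small p-values in these same mice, so both results were close to given and lend no separate support. The gene lists below were chosen with earlier results of these data known. An excess of calls in a list may follow in part from that choice.

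The mice of the 2 groups did not overlap in 1,637 genes (24.4% of those tested), which included 709 of the 725 called ones. Genes higher in CS lay in long loci: their median span from start to end was 94.3 kb, against 10.1 kb for the genes lower in CS and 31.0 kb for all genes tested. After centring within 20 bins of gene span, an alternative chosen after the data were seen, 122 genes were called, 54 higher and 68 lower, of which 101 were among the 725. The share of calls in the higher direction was thus 44.3% after centring and 60.7% before. Centring removes the median shift between mice in each bin, so a change in this share follows in part from the procedure. The part of gene length in these differences was not tested.

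**Figure D1:**
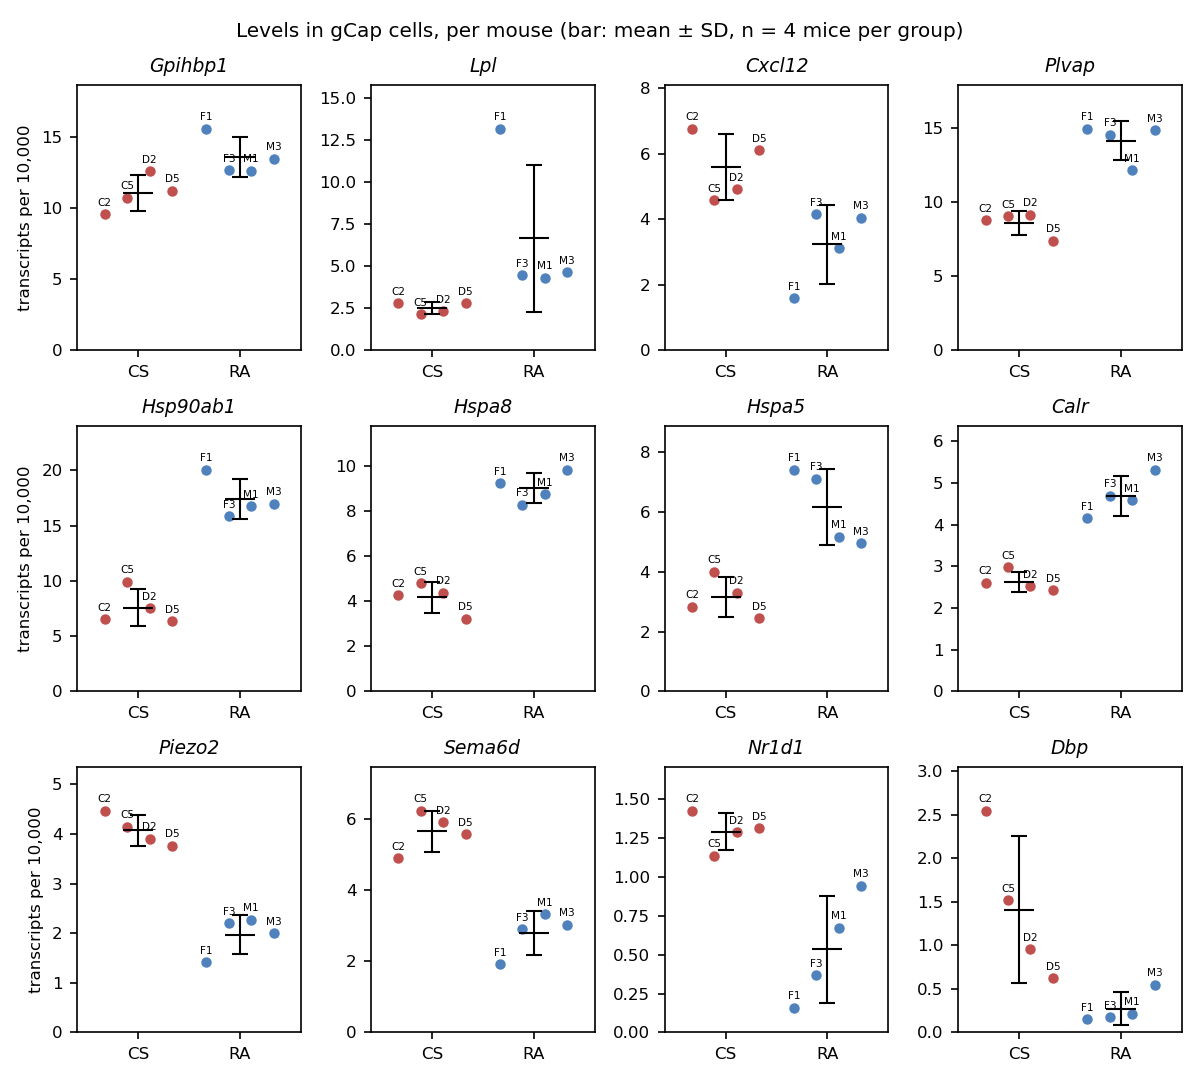
Mean level in gCap cells (transcripts per 10,000, linear axes from 0) of 12 genes in each mouse, CS in red and RA in blue; horizontal bars with whiskers are the mean ± SD of 4 mice. The groups do not overlap in any of the panels, and F1 lies far above the other RA mice for Lpl, at 13.2 against 4.32 to 4.63.

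Of the 3 marker genes, Lpl (chr8:68880491-68907448, plus strand, GRCm38) fell in CS. Its level was 2.79, 2.14, 2.33 and 2.82 in C2, C5, D2 and D5, and 13.2, 4.49, 4.32 and 4.63 in F1, F3, M1 and M3. Every CS mouse lay below every RA mouse, and F1 lay far above the rest of its group. The log2 difference was −0.99 ± 0.28 (SE, n = 4 per group; limma, adjusted p = 0.04996), and without F1 it was −0.64 with an adjusted p of 0.0096. Over leaving out each mouse in turn the adjusted p ran up to 0.118, and Lpl kept its call in 2 of these 8 fits. A transcript of Lpl was present in 30.0 to 36.3% of thinned gCap cells of CS mice and in 47.3 to 82.7% of those of RA mice, and in 0.775% of thinned B cells.

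Gpihbp1 (chr15:75596628-75599481, plus strand) did not pass the test. It stood at 9.58, 10.8, 12.6 and 11.3 in the CS mice and at 15.6, 12.7, 12.7 and 13.5 in the RA mice. The groups were separate by a narrow margin between D2 and M1, with an exact two-sided permutation p of 0.0286, the smallest that 4 mice against 4 allow. The log2 difference of −0.28 ± 0.12 (SE) had an adjusted p of 0.124 (limma). It ranged from 0.0695 to 0.274 over the alternatives that kept all mice and treated mice, not cells, as replicates.

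Cxcl12 (chr6:117168535-117181367, plus strand) was measured at 6.75, 4.58, 4.91 and 6.10 in the CS mice and at 1.59, 4.16, 3.12 and 4.05 in the RA mice. The groups did not overlap (exact permutation p = 0.0286), yet the log2 difference of 0.68 ± 0.21 (SE) missed the threshold across genes, with an adjusted p of 0.0610 (limma). Without F1, the lowest mouse, the difference was 0.46 with an adjusted p of 0.0544. In a ligand-receptor network, the paper found more outgoing gCap CXCL signalling in these CS mice, mainly through Cxcl12 and its binding partners. It also reports CXCL12 RNA in capillary cells of human lungs with chronic obstructive pulmonary disease, by in situ hybridization. Of the receptors of Cxcl12, Ackr3 was found in 12.5% of thinned gCap cells, against 0.291% of thinned B cells. Ackr3 averaged 0.944 ± 0.297 in CS and 0.709 ± 0.256 in RA (SD, n = 4; limma adjusted p = 0.315), and Cxcr4 was found in 1.95% of thinned gCap cells, against 29.5% of thinned B cells, and was not tested. None of the 4 tested receptors and partners of Cxcl12, among them the chemokine-cleaving peptidase Dpp4 and the integrin chain Itgb1, was called (1 at an unadjusted p under 0.05), beside the 10.8% of all genes called.

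Genes of lipid handling beside Lpl gave 2 further calls, both lower in CS, which made 3 of 8 tested, beside the 4.25% of all genes called lower. Hilpda, a lipid-droplet protein, averaged 4.56 ± 0.255 in CS and 6.85 ± 1.27 in RA (SD, n = 4), a log2 difference of −0.48 (limma adjusted p = 0.0376). Dgat1, which makes triglyceride, averaged 0.382 ± 0.0771 and 0.579 ± 0.10, a log2 difference of −0.19 (limma adjusted p = 0.04996). The median of the 8 genes was −0.12, beside 0.01 over all genes tested. The list gave 2 calls without F1 or M1, 1 without M3, and none without C2, C5, D2, D5 or F3, with the lane block, with the 1% filter or after centring by gene span.

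Chaperones of the cytosol, which hold and fold proteins, were lower in CS. Of 28 genes tested in this list 12 fell and none rose, beside the 4.25% of all genes called lower, and the median log2 difference was −0.23. The list also holds the mitochondrial chaperonins Hspd1 and Hspe1 and the transcription factor Hsf1, none of which was called, and 1 of the 12, Ahsa2, reached the detection limit only in RA. Hsp90ab1, the constitutive cytosolic Hsp90, stood at 6.53, 9.94, 7.52 and 6.35 in the CS mice and at 20.1, 15.9, 16.8 and 17.0 in the RA mice, a log2 difference of −1.11 ± 0.14 (SE, limma adjusted p = 0.0110). Hspa8, the constitutive Hsp70, stood at 4.27, 4.83, 4.39 and 3.23 against 9.27, 8.31, 8.77 and 9.85, a difference of −0.96 ± 0.12 (adjusted p = 0.0110). For both genes the lowest RA mouse was well above the highest CS mouse. Hspb1, a small heat shock protein, stood at 0.766, 2.34, 1.22 and 1.12 against 7.84, 2.56, 6.15 and 5.29, so that C5 and F3 nearly met, with a difference of −1.42 ± 0.27 (adjusted p = 0.0261). The Hsp90 co-chaperone Fkbp4 fell by 0.31 on the log2 scale (adjusted p = 0.0110). The list gave 13 genes lower without F1, 3 without C2, 4 without D2, 7 without F3 and none without D5, where its median was −0.21, and it gave 6 after centring by gene span.

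The 8 subunits of TRiC, the ring-shaped chaperonin that folds actin and tubulin, all had lower means in CS, and 5 were called, beside the 4.25% of all genes. Cct5 averaged 0.608 ± 0.0477 in CS and 0.898 ± 0.0257 in RA (SD, n = 4), a log2 difference of −0.24 (limma adjusted p = 0.0156). Cct2, Cct3, Cct7 and Cct8 differed by −0.16 to −0.19. The median of the 8 was −0.16, and the calls came to 1 each without D2 or F3 or after centring by gene span, and none without C2 or D5. Actb, beta-actin, was called as well, at 19.7 ± 2.13 against 36.0 ± 13.7.

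Chaperones of the endoplasmic reticulum (ER), which fold secreted and membrane proteins, moved in the same direction. Of 21 tested 11 fell and none rose, beside the 4.25% of all genes called lower, with a median of −0.20. The list also holds the transcription factors Xbp1, Atf4 and Ddit3 and genes of ER-associated degradation, Syvn1, Sel1l and Herpud1, none of which was called, and 2 of the 11, Sdf2l1 and Creld2, reached the detection limit only in RA. Pdia6, a protein disulfide isomerase, stood at 1.09, 1.23, 1.09 and 1.03 in the CS mice and at 1.76, 2.31, 2.40 and 2.65 in the RA mice, a log2 difference of −0.63 ± 0.08 (SE, limma adjusted p = 0.0110). Calr, the lectin chaperone calreticulin, stood at 2.61, 2.98, 2.52 and 2.43 against 4.16, 4.70, 4.58 and 5.31, a difference of −0.64 ± 0.09 (adjusted p = 0.0113). The groups were far apart for both, and F1 was the lowest RA mouse in each. Hspa5, the Hsp70 of the ER, stood at 2.84, 4.01, 3.31 and 2.44 against 7.41, 7.11, 5.17 and 4.95, a difference of −0.78 ± 0.15 (adjusted p = 0.0266). The list gave 12 genes lower without F1, 3 each without C2, D2 or F3, and none without D5, where its median was −0.22, and it gave 7 after centring by gene span.

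Promoters of these genes are shown because many carry the ER stress element, a sequence through which unfolded protein in the ER acts on transcription. The element was searched as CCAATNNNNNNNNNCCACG on both strands in 250 bases before to 50 after the start of each gene (RefSeq, GRCm38.p6). It was present in 8 of the 20 genes of the ER list with a promoter in the table, against 0.119% of all 32,851 promoters and 0.227% of the 5,293 tested genes with a promoter there. Of these 8, 5 fell in CS, beside 11 of the 21 tested genes of the list and the 4.25% of all genes called lower. Creld2, 1 of the 5, reached the detection limit only in RA. Whether the element went with the fall was not tested. Stretches from the 5 of these 8 that fell in CS follow, 5′ to 3′ on the strand of the gene, with the element in capitals and its first base 65 (Hspa5), 162 (Calr), 98 (Pdia6), 105 (Dnajc3) and 126 (Creld2) bases before the start. In Calr and Creld2 the element lies on the other strand, so that its complement is what is read.
Hspa5 chr2:34771985-34772083, plus strand: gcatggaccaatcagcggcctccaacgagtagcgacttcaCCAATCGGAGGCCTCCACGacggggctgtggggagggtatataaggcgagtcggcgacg
Calr chr8:84847035-84847133, minus strand: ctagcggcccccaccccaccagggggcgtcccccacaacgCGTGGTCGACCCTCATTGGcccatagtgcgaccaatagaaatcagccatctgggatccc
Pdia6 chr12:17266451-17266549, plus strand: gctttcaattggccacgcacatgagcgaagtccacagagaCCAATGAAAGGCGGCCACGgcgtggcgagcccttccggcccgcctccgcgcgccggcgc
Dnajc3 chr14:118937787-118937885, plus strand: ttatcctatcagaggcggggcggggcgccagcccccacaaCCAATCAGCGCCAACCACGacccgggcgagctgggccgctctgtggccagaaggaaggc
Creld2 chr15:88819480-88819578, plus strand: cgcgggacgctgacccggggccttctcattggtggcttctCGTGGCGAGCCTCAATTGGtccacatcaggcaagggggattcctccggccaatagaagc
Dnajc3, a co-chaperone of Hspa5, differed by −0.23 (limma adjusted p = 0.0287) and Creld2, a disulfide isomerase of the ER, by −0.20 (adjusted p = 0.0284) on the log2 scale. The other 3 genes with the element were not called: Hsp90b1, the Hsp90 of the ER, at −0.33 (adjusted p = 0.0754), Canx at −0.03 (adjusted p = 0.708) and Syvn1 at 0.00 (adjusted p = 0.939). These 5 genes, Dnajc3, Creld2, Hsp90b1, Canx and Syvn1, are named for the element in their promoter. The heat shock element, searched as GAA, TTC and GAA with any 2 bases between them, was found in 5 of 23 promoters of the cytosolic chaperone list (Hsph1, Hspd1, Hspe1, Dnajb6 and Chordc1, of which the windows and sites of Hspd1 and Hspe1 overlap) against 0.603% of all promoters and 0.661% of those of tested genes, and none of the 5 was called. A match is a description of letters and not of a bound site.

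Immediate-early genes, which rise within minutes of many stimuli, were lower in CS. All 22 tested had a log2 difference below 0, 11 of them passed the test, beside the 4.25% of all genes called lower, and the median was −0.52. Atf3, a stress-induced transcription factor, stood at 3.59, 5.53, 4.30 and 3.75 in the CS mice and at 18.6, 8.63, 7.51 and 6.79 in the RA mice, a difference of −1.01 ± 0.26 (SE, limma adjusted p = 0.0413), or −0.71 without F1 (adjusted p = 0.0176). Socs3, an inhibitor of cytokine signalling, averaged 1.2 ± 0.218 against 2.46 ± 0.341 (SD, n = 4; adjusted p = 0.0128). Jun averaged 16.7 ± 2.47 against 25.1 ± 0.819 (adjusted p = 0.0295), Dusp1, a MAP kinase phosphatase, 4.92 ± 0.845 against 8.12 ± 0.909 (adjusted p = 0.0271), and Klf2, a shear-responsive factor, 12.3 ± 2.10 against 19.2 ± 2.50 (adjusted p = 0.0332). The groups did not overlap for any of these. The level of these genes also followed the authors' clusters, whose shares differ between mice. Within cluster 0 (4,252 cells) 7 genes of the list were called lower at a median of −0.41, beside 239 of all 6,712 genes. Within cluster 1 (4,166 cells), the one led by stress genes, none was called at a median of −0.25, beside 5 of all 6,712 genes called lower there. The list gave 9 genes lower without F1, 7 without M3, 5 without C5, 1 each without C2, D2 or F3, none without D5, and 2 after centring by gene span.

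Related stress and inflammatory lists of 12 genes each gave 3 or 4 calls, beside the 6.56% of all genes called higher and the 4.25% called lower. Cdkn1a, the cell cycle inhibitor p21, stood at 2.76, 3.78, 2.81 and 2.7 in the CS mice and at 16.9, 9.21, 5.86 and 4.97 in the RA mice, a log2 difference of −1.22 ± 0.29 (SE, limma adjusted p = 0.0340), or −0.91 without F1 (adjusted p = 0.0202). RA mice spread widely and F1 was highest, but none reached down to the CS mice. Without D5 Cdkn1a was not called. Of 12 p53 targets and Gadd45 genes 3 fell (Cdkn1a, Btg2 and Gadd45b), with a median of −0.09. Of 12 NF-kB targets Nfkbia, the inhibitor of NF-kB, and Icam1 fell and Nfkb1, a subunit of it, rose. Nfkbia averaged 5.10 ± 0.191 against 8.48 ± 0.932 (SD, n = 4; adjusted p = 0.0156). Cebpd, an inflammation-induced transcription factor, averaged 3.94 ± 0.437 against 8.30 ± 2.59 (adjusted p = 0.0261). Of 12 corticosteroid targets 3 fell, Cdkn1a, Dusp1 and Tsc22d3, and the mineralocorticoid receptor Nr3c2 rose, from 1.67 ± 0.359 in RA to 2.63 ± 0.184 in CS (adjusted p = 0.0287).

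**Figure D2:**
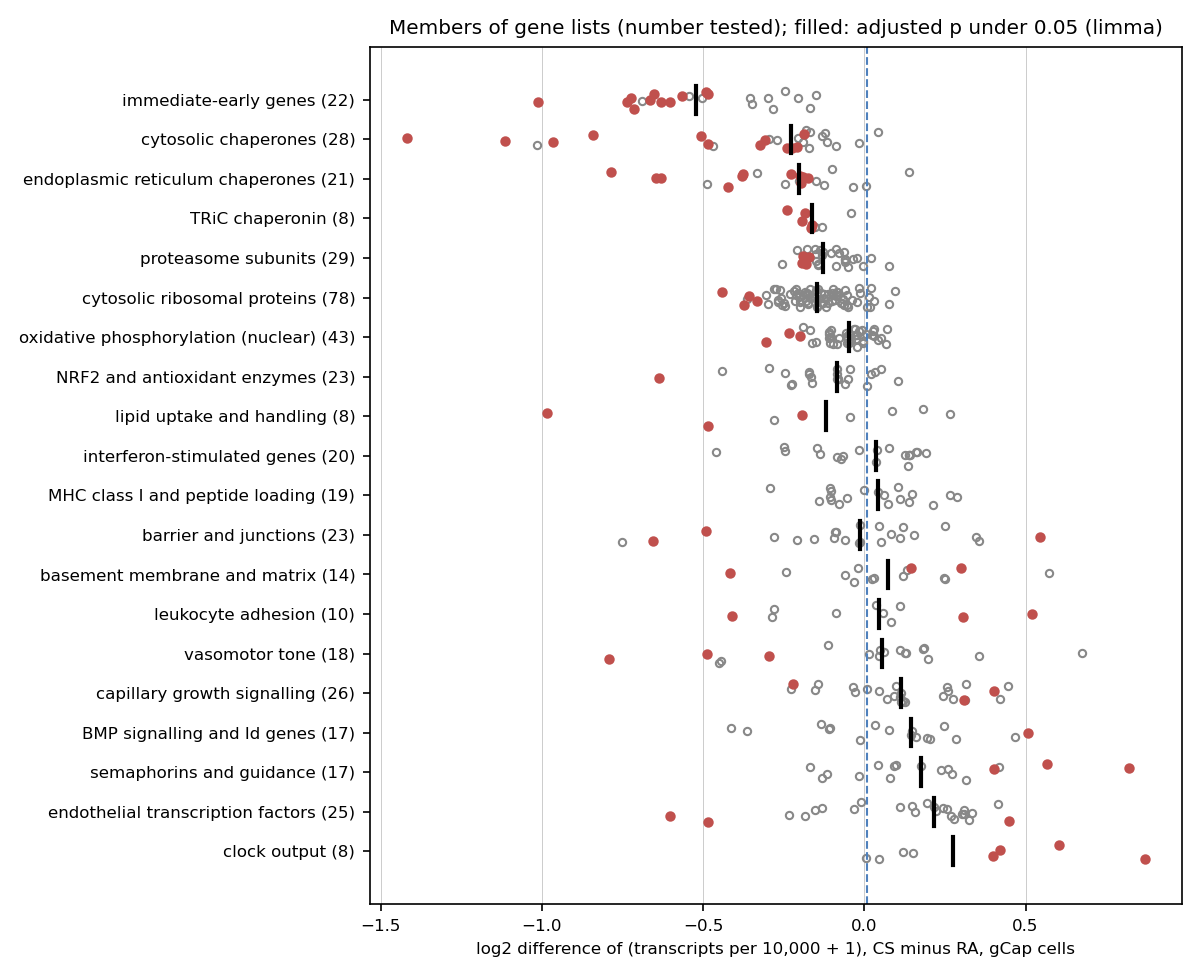
Log2 difference between CS and RA in gCap cells for each tested member of 20 gene lists (horizontal axis; number tested in brackets), filled where the adjusted p was under 0.05; black bars are list medians and the dashed line is the median over all genes tested, 0.01. All 22 immediate-early genes lie left of 0, and all 8 clock output genes lie right of it.

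Genes under direct control of the circadian clock were higher in CS. Of 8 tested, 4 rose and none fell, beside the 6.56% of all genes called higher, the median was 0.28 and every member was above 0. Dbp, a transcription factor of the clock's output, stood at 2.55, 1.52, 0.961 and 0.622 in the CS mice and at 0.150, 0.174, 0.215 and 0.550 in the RA mice, a log2 difference of 0.87 ± 0.21 (SE, limma adjusted p = 0.0337). CS mice differed widely among themselves, and D5 came close to M3. Nr1d1, a repressor that closes a loop of the clock, stood at 1.43, 1.14, 1.29 and 1.32 against 0.159, 0.369, 0.674 and 0.944, a difference of 0.60 ± 0.13 (adjusted p = 0.0306). The related Nr1d2 rose by 0.42 (adjusted p = 0.0159) and Tef by 0.40 (adjusted p = 0.0274). Of 6 genes of the opposite phase only Arntl and Clock were detected well enough to be tested. Arntl, the partner of Clock, averaged 0.156 ± 0.0602 in CS and 0.367 ± 0.140 in RA (SD, n = 4) with an adjusted p of 0.0512, and Clock 0.925 ± 0.187 and 0.882 ± 0.0374 (adjusted p = 0.776). The E-box, CACGTG, lay in the promoter of 3 of 6 clock output genes, Tef, Per1 and Ciart, against 7.15% of all promoters and 11.8% of those of tested genes, and of these Tef was called. The D-box, searched as TTATGTAA and TTACGTAA, lay in none of the 6, against 1.06% of all promoters and 0.850% of those of tested genes. The list gave 4 calls without F1, 3 after centring by gene span, 1 without F3 and none without C2, D2 or D5. The hour at which each lung was taken is not given in the sources used here.

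Several other genes were higher in CS by large differences. Scn7a, an atypical sodium channel, stood at 9.64, 7.84, 9.64 and 8.47 in the CS mice and at 1.28, 3.59, 4.56 and 4.22 in the RA mice, a log2 difference of 1.24 ± 0.25 (SE, limma adjusted p = 0.0271), or 0.95 without F1 (adjusted p = 0.0075). F1 was lowest here, and the lowest CS mouse was still above the highest RA mouse. Like every called gene, Scn7a lost its call without D5. Piezo2, a mechanically gated channel, stood at 4.47, 4.14, 3.90 and 3.77 against 1.41, 2.20, 2.27 and 2.0, a difference of 0.78 ± 0.10 (adjusted p = 0.0110). Sema6d, a membrane semaphorin, stood at 4.90, 6.24, 5.91 and 5.58 against 1.92, 2.91, 3.33 and 3.03, a difference of 0.82 ± 0.13 (adjusted p = 0.0156). Both kept an adjusted p under 0.05 after centring by gene span, at 0.62 and 0.66 (adjusted p = 0.0266 and 0.0292).

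Pde4d, a phosphodiesterase that degrades cAMP, averaged 5.77 ± 0.713 in CS and 2.89 ± 0.855 in RA (SD, n = 4; limma adjusted p = 0.0266), and Plcb1, a phospholipase C downstream of G protein-coupled receptors, 24.8 ± 1.62 and 14.8 ± 3.45 (adjusted p = 0.0295). Pdgfd, a platelet-derived growth factor, averaged 5.48 ± 0.727 and 2.78 ± 0.566 (adjusted p = 0.0167). Klf12, a transcription factor, Cdk19, a kinase of the Mediator complex, and Myo10, a myosin of filopodia, rose by 0.79, 0.72 and 0.71 on the log2 scale. For Myo10, F1 was lowest at 2.35, against 4.39 to 4.57 in the other RA mice, and without F1 the difference was 0.53 (adjusted p = 0.0103). Without D5 Myo10 was not called. After centring by gene span Klf12, Plcb1, Cdk19 and Myo10 no longer passed (adjusted p = 0.0716, 0.0587, 0.0652 and 0.0587), while Scn7a, Pde4d and Pdgfd did (0.0470, 0.0447 and 0.0292).

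Of 17 semaphorins and other guidance genes 3 rose and none fell, beside the 6.56% of all genes called higher, with a median of 0.18. Beside Sema6d, these were Sema3c, a secreted semaphorin highest in gCap cells of all types, and Nrp1, a co-receptor for semaphorins and VEGF. Sema3c stood at 29.9, 26.3, 25.8 and 25.4 in the CS mice and at 13.6, 17.4, 19.9 and 21.2 in the RA mice, a log2 difference of 0.57 ± 0.14 (SE, limma adjusted p = 0.0381). Nrp1 averaged 6.94 ± 0.359 against 5.05 ± 0.839 (SD, n = 4; adjusted p = 0.0492). Only Sema6d kept its call after centring by gene span (Sema3c had an adjusted p of 0.0827), and the list gave 2 calls without F1, 1 each without C2, C5 or F3, and none without D2 or D5.

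Of 26 genes of capillary growth 3 were called, 2 higher and 1 lower, near the 10.8% of all genes. Kdr, the main VEGF receptor, averaged 2.96 ± 0.160 in CS and 2.19 ± 0.178 in RA (SD, n = 4), a log2 difference of 0.31 (limma adjusted p = 0.0297), and Dll1, a Notch ligand, 0.707 ± 0.108 and 0.989 ± 0.0871 (adjusted p = 0.0376). The other was Nrp1, and the median was 0.11. Of 17 genes of BMP signalling Bmpr2, the type II receptor altered in heritable pulmonary hypertension, was the single call, beside the 10.8% of all genes: it stood at 26.2, 20.9, 25.1 and 26.9 in the CS mice and at 14.8, 17.2, 18.6 and 17.7 in the RA mice, a difference of 0.51 ± 0.12 (SE; adjusted p = 0.0337). The BMP targets Id1 and Id3 had lower means in CS without passing (−0.41 and −0.36, adjusted p = 0.0906 and 0.102). Of 25 endothelial transcription factors 3 were called, again near the 10.8% of all genes: Mef2c rose, from 1.58 ± 0.216 in RA to 2.53 ± 0.278 in CS (adjusted p = 0.0227), and Klf2 and Klf4 fell.

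Of 23 barrier genes 3 were called, beside the 10.8% of all genes. Plvap, which forms the diaphragms of endothelial fenestrae and caveolae and is a marker of these cells, stood at 8.79, 9.09, 9.18 and 7.42 in the CS mice and at 15, 14.6, 12.2 and 14.9 in the RA mice, a log2 difference of −0.66 ± 0.11 (SE, limma adjusted p = 0.0201). The groups were well apart, and the difference was called within cluster 0 and within cluster 1 (adjusted p = 0.0067 and 0.0479). Cldn5, the main endothelial claudin, averaged 15 ± 1.77 against 21.5 ± 2.01 (SD, n = 4; adjusted p = 0.0355). Emcn, a sialomucin that hinders leukocyte binding, rose from 1.46 ± 0.294 in RA to 2.58 ± 0.10 in CS (adjusted p = 0.0156). The median of the barrier genes was −0.01.

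Adhesion, matrix and vasomotor genes gave 3 calls each, of 10, 14 and 18 tested, beside the 10.8% of all genes. The sialomucins Podxl (8.03 ± 0.247 against 5.35 ± 1.01; limma adjusted p = 0.0313) and Cd34 (0.743 ± 0.137 against 0.408 ± 0.0873; adjusted p = 0.0287) rose, and Icam1, a leukocyte receptor, fell from 4.35 ± 0.525 in RA to 3.03 ± 0.394 in CS (SD, n = 4; adjusted p = 0.0359). In the matrix list Col4a1 and Lamb2, chains of the basement membrane, rose by 0.30 and 0.14 on the log2 scale (adjusted p = 0.0407 and 0.0455), and Serpinh1, a chaperone of collagen, fell by 0.42 (adjusted p = 0.0321). Of 18 vasomotor genes Ptgs1, a cyclooxygenase, Npr3, the clearance receptor for natriuretic peptides, and Ddah2, which degrades an inhibitor of nitric oxide synthase, fell. Npr3 stood at 2.17, 1.70, 2.72 and 3.08 in the CS mice and at 2.97, 4.95, 5.47 and 6.63 in the RA mice (adjusted p = 0.0370), and it was called although D5 lay above F1. Tinagl1, a matricellular protein outside these lists, averaged 1.16 ± 0.0857 against 2.87 ± 1.21 (adjusted p = 0.0295).

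Each of 2 lists of genes that answer the chemicals of smoke gave 1 call, beside the 6.56% of all genes called higher and the 4.25% called lower. Ahr, the aryl hydrocarbon receptor, rose from 1.18 ± 0.319 in RA to 2.11 ± 0.171 in CS (SD, n = 4; limma adjusted p = 0.0271), and it was the 1 call among 4 genes of its list that could be tested. The others were Arnt at 0.19 (adjusted p = 0.0728), Cyp1a1 at −0.27 (adjusted p = 0.520) and Tiparp at −0.23 (adjusted p = 0.132) on the log2 scale. The median of the 4 was −0.02. Ephx1, an epoxide hydrolase that acts on xenobiotics and is outside these lists, stood at 1.89, 1.5, 1.52 and 1.49 in the CS mice and at 0.893, 0.805, 0.737 and 0.942 in the RA mice, a log2 difference of 0.49 ± 0.06 (SE; adjusted p = 0.0110). Of 23 NRF2 and antioxidant genes only the ferritin chain Ftl1 was called, lower in CS (2.46 ± 0.461 against 4.35 ± 0.230; adjusted p = 0.0156), and the median was −0.09.

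Medians of the housekeeping lists lay a little below 0. Of 29 proteasome subunits 4 fell (Psmc2, Psmc3, Psmc4 and Psmc5, ATPases of the regulatory particle; median −0.13), of 78 cytosolic ribosomal proteins 4 (Rpl10, Rpl7a, Rplp0 and Rps3; median −0.15), and of 43 nuclear genes of oxidative phosphorylation 3 (Atp5b, Cycs and Sdhb; median −0.05). These shares of genes called lower stand beside the 4.25% of all genes. The 12 tested mitochondrially encoded genes gave no call (1 at an unadjusted p under 0.05), beside the 10.8% of all genes called. Neither did the cold-inducible Cirbp, at 1.51 ± 0.310 in CS and 1.53 ± 0.494 in RA (SD, n = 4). Of 5 cell cycle genes only Tubb5, a beta-tubulin, was called, at 2.26 ± 0.178 against 3.27 ± 0.386 (SD, n = 4).

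Antigen presentation and interferon genes gave no call, beside the 10.8% of all genes called and the 2,351 of 6,712 with an unadjusted p under 0.05. None of 19 genes of MHC class I and peptide loading passed (median 0.04; 3 at an unadjusted p under 0.05), nor any of 7 of MHC class II (median 0.23; 0 at an unadjusted p under 0.05) or of 20 interferon-stimulated genes (median 0.04; 2 at an unadjusted p under 0.05) in the limma test. A Wilcoxon test over cells, in which cells stand in for replicates, called 12, 7 and 12 genes of these lists, beside 3,216 of all 6,712 genes. H2-K1, a class I heavy chain, stood at 18.3, 22.5, 23.1 and 26.3 in the CS mice and at 11.3, 25.7, 28.1 and 25.3 in the RA mice, with F1 far below the rest of its group. Cd74, the class II invariant chain, stood at 8.11, 14.4, 17.4 and 31.0 against 1.45, 23.1, 22.8 and 16.4. The groups overlapped with and without F1 for both. Without F1 the medians of the MHC class I, MHC class II and interferon lists turned to −0.12, −0.11 and −0.09, and 2 genes were called, both lower in CS: H2-D1, a class I heavy chain, at −0.47 (adjusted p = 0.0228) and Ifitm3, an interferon-induced membrane protein, at −0.37 (adjusted p = 0.0333). No call was made among 9 cathepsin and lysosome genes (3 at an unadjusted p under 0.05) or 3 complement regulators (0) either. Of 7 chemokines and cytokines only Cxcl16, a membrane-bound chemokine, was called, beside the 10.8% of all genes, and it reached the detection limit only in RA, where it was higher (11.8% of cells, against 6.37% in CS).

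The study named a set of endothelial genes in human lungs, some changed in chronic obstructive pulmonary disease (COPD) and some type markers. Of 20 mouse genes listed for them 15 were tested. Among these 15, 2 were called, near the 10.8% of all genes: Jund, an AP-1 subunit, and Gadd45b, a stress sensor, fell. In COPD the paper reports JUND, FOS and FOSB as increased and ID1, ID3 and LDB2 as decreased in several endothelial types. It names GADD45B among stress genes that differed in capillary cells. Jund thus ran opposite to the human gene. Jund stood at 6.96, 5.26, 6.27 and 4.26 in the CS mice and at 11.5, 10.4, 7.76 and 8.65 in the RA mice, a log2 difference of −0.67 ± 0.16 (SE, limma adjusted p = 0.0337). Gadd45b averaged 1.08 ± 0.265 against 1.82 ± 0.440 (SD, n = 4; adjusted p = 0.0476), with C5 above M3. Fos (−0.69, adjusted p = 0.0954), Fosb (−0.35, adjusted p = 0.322), Ldb2 (0.24, adjusted p = 0.386), Sema6a (0.42, adjusted p = 0.120), Irf1 (−0.07, adjusted p = 0.845) and Hpgd (−0.45, adjusted p = 0.0552) did not pass. Car4, Prx, Nostrin, Cx3cl1, Washc2, Id1 and Id3 did not pass either, and Il6, Tnfaip3 and Wnt2b were under the detection limit for testing. Fcna and Fcnb, listed in place of the FCN3 that the paper named, were at 0 in every mouse. The median of the 15 was −0.08, pooled over type markers and over genes increased and decreased in COPD.

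Whether a difference belonged to gCap cells or was shared with other vessels was tested within mice, as the difference in gCap cells minus that in another endothelial type. Against aerocytes (4,240 cells) 5 of 7,533 genes (0.0664%) passed. Ablim1, an actin-binding protein, stood at 5.29, 4.49, 4.77 and 5.73 in gCap cells of the CS mice and at 2.43, 2.96, 3.21 and 2.89 in those of the RA mice, while aerocytes averaged 4.33 ± 0.465 and 4.34 ± 0.387 (SD, n = 4). The difference of the log2 differences was 0.65 (limma adjusted p = 0.0014). Venous cells held Ablim1 at 4.81 ± 0.487 and 3.12 ± 0.190, and the test against them gave a difference of 0.15 (adjusted p = 0.494). Cdkn1a fell more in gCap cells than in aerocytes, which averaged 9.39 ± 0.522 in CS and 14.2 ± 6.54 in RA, a difference of −0.76 (adjusted p = 0.0054), and venous cells averaged 4.72 ± 1.32 and 10.7 ± 5.90. Ablim1 and Cdkn1a passed in each of 13 alternatives of this test. Leaving out any 1 mouse left 2 genes, or 3 without M3.

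The other 3 genes were less firm. Fryl differed by 0.41 more in gCap cells (2.85 ± 0.152 against 1.93 ± 0.342, with aerocytes at 1.08 ± 0.0451 and 1.09 ± 0.192), and venous cells held it at 2.42 ± 0.289 and 1.57 ± 0.196. Agpat4, an acyltransferase of phospholipid synthesis, was lower in CS in aerocytes alone of the pair (1.83 ± 0.0501 against 2.59 ± 0.204) and stood at 1.52 ± 0.0455 and 1.56 ± 0.213 in gCap cells. Dcbld1 was higher in CS in aerocytes (2.73 ± 0.161 against 1.63 ± 0.267) and stood at 0.456 ± 0.0698 and 0.388 ± 0.0658 in gCap cells. Each had a limma adjusted p of 0.0397, and of 13 alternatives Fryl passed in 1 and Agpat4 and Dcbld1 in 0.

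**Figure D3:**
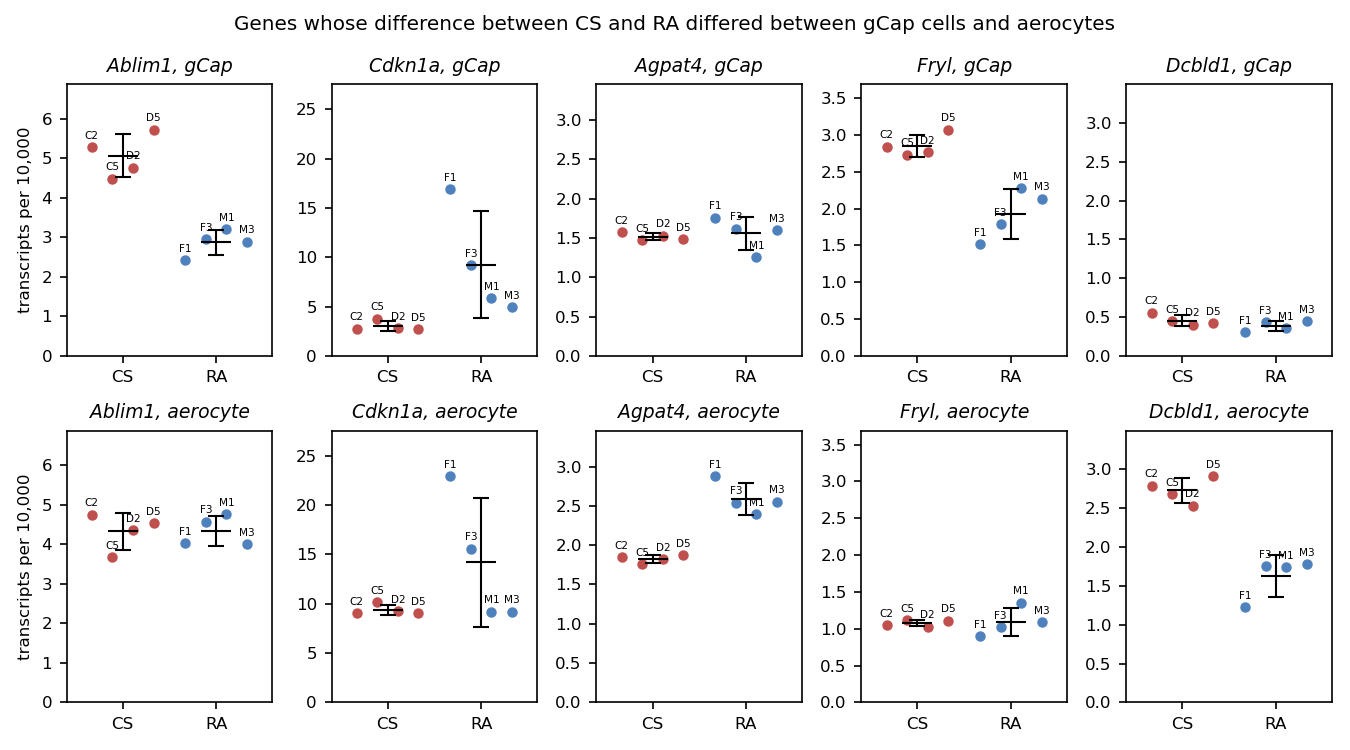
Mean level per mouse (transcripts per 10,000, linear axes from 0) in gCap cells (upper row) and aerocytes (lower row) of the 5 genes whose difference between CS (red) and RA (blue) differed between the types; bars with whiskers are the mean ± SD of 4 mice. Ablim1 separates the groups in gCap cells (5.07 against 2.87) and has like means in aerocytes (4.33 against 4.34).

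Against venous cells (1,665 cells) 2 of 7,992 genes (0.025%) passed: Ephx1, which averaged 1.16 ± 0.0930 in CS and 1.05 ± 0.116 in RA in venous cells (SD, n = 4; difference 0.42, limma adjusted p = 0.0201), and Arhgef7, which averaged 3.79 ± 1.01 and 5.22 ± 1.81 in gCap cells and 4.51 ± 1.62 and 3.68 ± 0.931 in venous cells (difference −0.57, adjusted p = 0.0448). In gCap cells Arhgef7 stood at 7.88 in F1 and at 3.87 to 4.75 in the other RA mice. In aerocytes Ephx1 averaged 1.99 ± 0.309 in CS and 0.926 ± 0.131 in RA. Against arterial cells (730 cells) 0 of 8,230 genes passed in limma (0%), with 821 at an unadjusted p under 0.05. Few cells per mouse, 40 to 173, stood behind the arterial means.

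No member of the chaperone, TRiC, clock or immediate-early lists was called in this test against any of the 3 other types. The test called only 0.0664% (aerocytes), 0% (arterial) and 0.025% (venous) of all genes. The lack of calls in these lists therefore does not show that their differences were shared. Tested on their own over the same 6,712 genes, aerocytes gave 102 calls (1.52%), arterial cells 50 (0.745%) and venous cells 9 (0.134%). In aerocytes 13 of 28 cytosolic chaperones and 5 of 21 ER chaperones were called lower in CS, with medians of −0.22 and −0.23. In arterial cells 1 and 6 were (medians −0.14 and −0.24), and in venous cells 0 and 2 (medians −0.14 and −0.21). Hspa8 averaged 3.49 in CS and 7.80 in RA in aerocytes (log2 difference −0.98, limma adjusted p = 0.0109). Immediate-early genes gave no call in aerocytes (median −0.32), arterial cells (−0.23) or venous cells (−0.39), and whether the list differed as a whole between types was not tested.

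**Figure D4:**
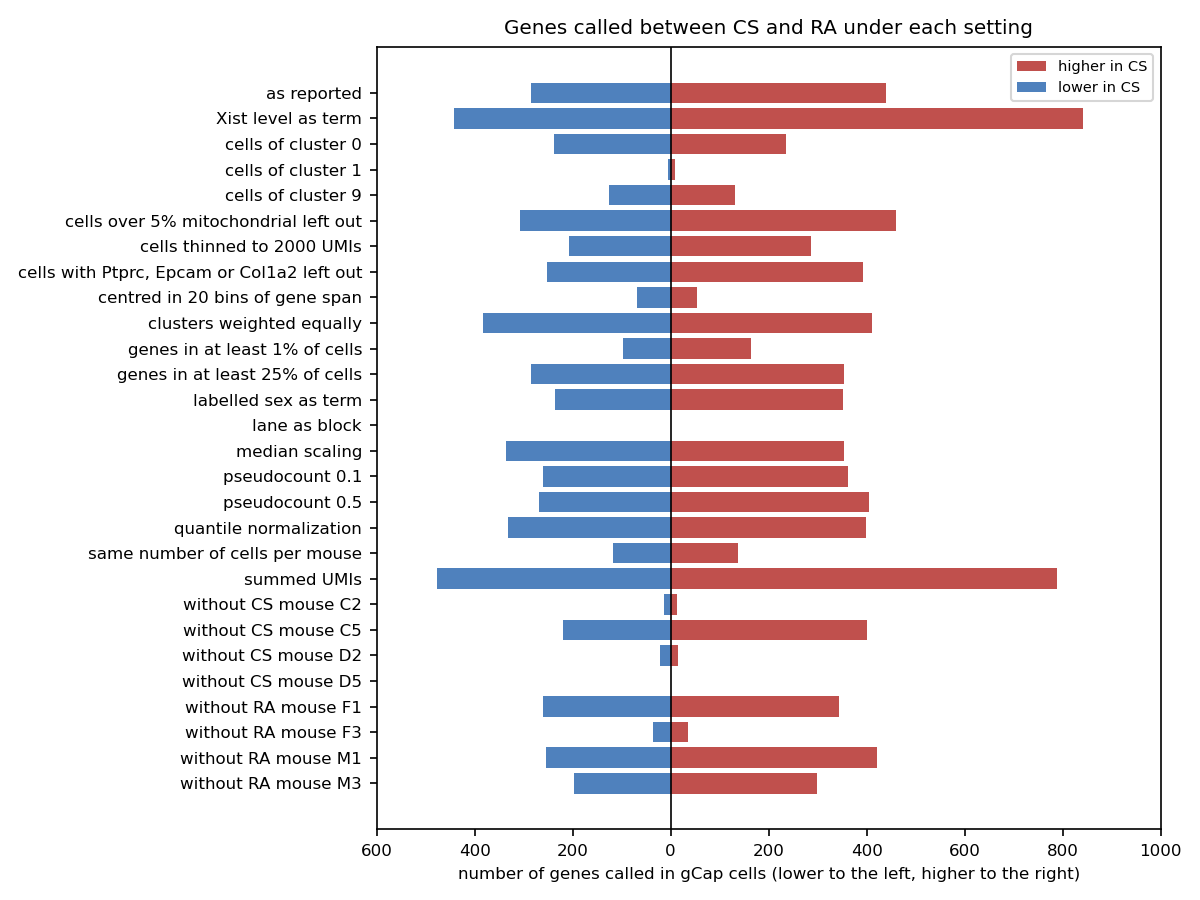
Number of genes called between CS and RA in gCap cells under each setting of the analysis but the Wilcoxon test over cells, lower in CS to the left (blue) and higher to the right (red) on a linear axis. The Wilcoxon test, with 3,216 calls, is not drawn. As reported, 285 were lower and 440 higher, and no bar is drawn for the lane block or for the fit without mouse D5, where 0 genes passed.

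The abundance of gCap cells among blood endothelial cells did not differ detectably. They made up 50.2, 47.4, 61.3 and 59.9% of the gCap cells, aerocytes, arterial and venous cells together in C2, C5, D2 and D5, and 67.7, 64.6, 62.3 and 51.8% in F1, F3, M1 and M3. The means were 54.7% ± 6.93 in CS and 61.6% ± 6.89 in RA (SD, n = 4), a difference of −6.91 percentage points (exact two-sided permutation p = 0.171), and the groups overlapped. Shares are of cells recovered after dissociation, not of cells in the lung.

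Markers of other cells were summed in the gCap cells of each mouse. The summed level of 5 lymphatic markers ran from 2.57 to 3.69 in CS mice and from 4.53 to 5.49 in RA mice (exact permutation p = 0.0286), almost all of it Lyve1, which arterial and venous cells also hold at 13.9 and 11.8, while Prox1, Mmrn1 and Reln were near 0. The sum of 7 immune markers ran from 0.379 to 0.604 and from 0.325 to 1.53 (p = 0.343), that of 5 AT2 markers from 0.459 to 1.46 and from 0.327 to 3.15 (p = 0.257), and that of 4 erythrocyte markers from 0.657 to 1.78 and from 0.227 to 1.57 (p = 0.343, exact permutation for each). The part of these transcripts in the differences above was not tested beyond leaving out the 281 gCap cells with Ptprc, Epcam or Col1a2, after which 644 genes were called.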

How the data were processed

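Single-cell libraries (10x 3' v3) of 8 mouse lungs were used, each remixed at 10% CD45-positive and 90% CD45-negative cells. Values in the deposited matrix are expected counts: the authors mapped reads with STARsolo in STAR 2.7.3a to GRCm38.p6, counted UMIs including intronic reads, removed cells under 7.5% unspliced reads and subtracted free RNA with SoupX, so counts are not whole. The mitochondrial percent per cell was deposited by the authors and used as a check: 223 gCap cells lie over 5%, the limit their methods name, and leaving them out was an alternative. Cell types and clusters were theirs, cells they marked as multiplets were dropped and doublets were not called again. Columns of the authors' comparisons were not used.

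Each gCap cell was scaled to 10,000 transcripts and averaged per mouse. Exposures were compared over mice with limma 3.58.1 (R 4.3.3; trend on) on log2(mean + 1), so that differences of low genes are understated, with Benjamini-Hochberg adjustment over genes found in at least 10% of gCap cells of either group and a threshold of 0.05. Effects were compared between endothelial types on within-mouse differences. For single values an exact two-sided permutation test over the 70 assignments was used. The limma step was tested on simulated data. Per-cell intervals were not given, since cells are not replicates, and p-values measure the spread between these 8 mice. Python 3.11.15, numpy 2.4.6, pandas 2.3.3, scipy 1.17.1 and matplotlib 3.10.9 were used. Promoters came from RefSeq and gene positions from a GENCODE annotation of the same build, which gave a span for 6,688 of 6,712 genes.

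The members and gene lists were chosen with earlier results of these data known. Genes named are the markers with the receptors of Cxcl12, the 10 higher and 10 lower called genes of largest log2 difference whose groups do not overlap, up to 4 called members of each list by adjusted p (or its 2 most abundant where none was called), the human endothelial genes, up to 5 in each direction by difference from aerocytes, Xist and Ddx3y, and members of any count of 5 or fewer. Each lane held 1 CS and 1 RA mouse. Deviations from the group means of mice sharing a lane correlated at 0.02, −0.03, −0.27 and 0.39, so the lanes were not taken to pair them. Alternatives were other pseudocounts, filters, scalings, terms for labelled sex, Xist level or lane, subsets of cells and leaving out each mouse. The term for labelled sex took the labels as given, which the transcripts contradict in the CS libraries.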

Additional observations from a re-analysis of the deposited data

Results flagged for a closer look

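In 250 groups of 4 mice, over the named genes and exposures, 15 held a mouse whose gap to its nearest neighbour exceeded the critical value of Dixon's test, where chance gives about 12.5. Of the 15 mice 5 were F1, an RA mouse: it was far above the other RA mice for Atf3 (18.6) and Lpl (13.2) and far below them for H2-K1 (11.3), Myo10 (2.35) and Tubb5 (2.7). Other RA mice stood out for Dbp (M3, 0.550, high), Fkbp4 (M3, 0.866, high), Irf1 (F3, 7.67, high) and Plvap (M1, 12.2, low). Among CS mice C5 was high for Arhgef7 (5.30) and Cdkn1a (3.78), C2 for Cdk19 (4.81) and Ephx1 (1.89), and D5 was low for Id1 (4.07) and mt-Cytb (17.7). All values are transcripts per 10,000.

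The difference between CS and RA differed from that in aerocytes, by a limma test of the difference itself, for Ablim1 (0.65 on the log2 scale), Cdkn1a (−0.76), Agpat4 (0.32), Fryl (0.41) and Dcbld1 (−0.44), and from that in venous cells for Ephx1 (0.42) and Arhgef7 (−0.57). A negative value means that the gCap difference was the lower of the pair.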

How the results depend on the processing

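The count of 725 genes called between CS and RA was sensitive to the setting. It rose to 3,216 with a Wilcoxon test over cells, which treats cells as replicates, to 1,283 with the Xist level as a term and to 1,265 with summed UMIs. It fell to 260 with genes in at least 1% of cells (of 13,674 tested), to 255 with equal cells per mouse, and, in alternatives added after the data were seen, to 474, 13 and 257 within clusters 0, 1 and 9 and to 122 with centring by gene span. Leaving out 1 mouse gave 0 (without D5) to 675 (without M1), and the lane as a block gave 0, with 2,152 genes at an unadjusted p under 0.05. The other 10 settings that kept all mice gave 494 to 792. Among them the term for labelled sex, which the transcripts contradict in the CS libraries, gave 588. The cause of these shifts was not tested. The lanes were not taken to pair the mice. Against aerocytes the count of 5 became 2 with the 25% filter, the lane block, a pseudocount of 0.1, equal cells and summed UMIs, and 2 to 3 without 1 mouse. The gCap share differed by 0.335 percentage points in the other direction over all CD45-negative cells (p = 0.971, exact permutation). Over the 121 named genes tested and 28 settings, all 83 called genes kept their direction (the lane block, the sex term and the detection filters cannot change it), while 741 of 3,379 gene and setting pairs lost a call and 51 gained one. The Wilcoxon test gave Cirbp (−0.17), Xist (−0.45) and mt-Rnr2 (−0.15) the opposite sign and called them. The limma test called none of them, and other genes it did not call changed sign under other settings. With 4 mice per group the permutation test reaches 0.0286 at best.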
